A study of Mus musculus with 24 samples.

Results

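The enzymes that prepare and make the covalent crosslinks of collagen and elastin were followed in mouse inguinal fat. They are 8 genes of the 16118 in the deposited expression table, taken by symbol: the lysyl oxidases Lox, Loxl1, Loxl2, Loxl3 and Loxl4, and the lysyl hydroxylases Plod1, Plod2 and Plod3. The table names Lox as ENSMUSG00000024529, Plod1 as ENSMUSG00000019055 and Loxl4 as ENSMUSG00000025185, the 3 called in the fit of all animals. All 8 were measured in every animal and all 8 passed the filter on low values.

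Poly(A) RNA of subcutaneous inguinal white adipose tissue was sequenced from 24 mice, 1 library per mouse, in a study of how prolonged breastfeeding remodels this depot in each sex. Each sex had 3 groups of 4 animals: postnatal day 21 (p21), day 28 (p28) with standard weaning (SW), and p28 with delayed weaning (DW). The descriptions give the SW label to every p21 animal too, and these animals are the baseline for both p28 groups. Below, SW alone means p28 animals. Weaning is the end of nursing. No strain, allele, diet or further treatment is given for any group, and the labels do not say which animals were littermates. In such bulk tissue, fewer cells of a type and less RNA per cell cannot be told apart.

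Reads recovered per library ranged from 57600711 to 302145813 in the listed genes. Summed adipocyte markers (8 of 8 measured, among them Adipoq and Plin1) lay between 13900 and 23701 in every animal. Male 53 at p21 had 14054 genes detected and SW male 84 had 15497, against 15859 to 16066 in the other 22 libraries. DW females 82 and 83 also stood apart from DW females 76 and 77 in several of the enzymes. Animals at p21 carry numbers 30 to 56 and animals at p28 numbers 73 to 124, so age and the run of animal numbers cannot be told apart.

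Collagen chains receive hydroxyl groups on selected lysines in the endoplasmic reticulum, which the Plod enzymes add. Plod1 acts mainly on lysines of the triple helix, Plod2 on those of the telopeptides, and Plod3 also transfers sugars to hydroxylysine. After secretion and trimming, the copper-dependent lysyl oxidases turn lysine and hydroxylysine into aldehydes that react with neighbouring chains. Lox is the founding member of its family, Loxl1 is known for elastic fibre upkeep, and Loxl2 for the collagen IV network of basement membranes. In fat, crosslinked collagen surrounds each adipocyte, and its amount and stiffness are known to change as the depot expands.

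The stretch of 250 bases upstream of the transcription start is shown for the 3 members that RefSeq's promoter table for GRCm38.p6 lists. They let the 2 lysyl hydroxylases, whose levels went together among animals, be read beside a lysyl oxidase. Each runs 5′ to 3′ toward the gene, at chr4:147936777-147937026 on the minus strand for Plod1, chr5:136986769-136987018 on the plus strand for Plod3 and chr19:42612807-42613056 on the minus strand for Loxl4. Capitals mark ACGTG, the A form of the hypoxia response element core (A or G, then CGTG), and GGGCGG, the GC box, each on either strand. The G form, GCGTG, was not marked or counted, though each of the 3 stretches holds it on a strand.
Plod1: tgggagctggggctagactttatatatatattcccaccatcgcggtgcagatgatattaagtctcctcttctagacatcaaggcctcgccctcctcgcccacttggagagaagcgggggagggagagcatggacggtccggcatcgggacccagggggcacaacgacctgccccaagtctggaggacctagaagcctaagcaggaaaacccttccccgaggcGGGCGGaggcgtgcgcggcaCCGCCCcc
Plod3: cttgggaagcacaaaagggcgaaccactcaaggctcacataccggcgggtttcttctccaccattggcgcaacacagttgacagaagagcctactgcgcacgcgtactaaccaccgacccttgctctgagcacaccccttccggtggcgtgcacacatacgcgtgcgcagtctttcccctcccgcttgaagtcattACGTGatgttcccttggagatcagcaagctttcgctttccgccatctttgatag
Loxl4: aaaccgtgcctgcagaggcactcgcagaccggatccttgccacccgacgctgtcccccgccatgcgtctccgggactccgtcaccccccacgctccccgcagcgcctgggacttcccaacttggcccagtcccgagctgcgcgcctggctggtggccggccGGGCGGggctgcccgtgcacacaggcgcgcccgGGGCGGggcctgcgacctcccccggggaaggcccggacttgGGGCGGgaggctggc
The Loxl4 stretch holds 3 GC boxes, that of Plod1 holds 2 and that of Plod3 none. ACGTG occurs 1 time, in Plod3, which leaves out the G form of that core. Among 32851 promoter stretches of the same length, GGGCGG occurs in 32.7% and ACGTG in 16.6%. TATAAA, on either strand, occurs 1 time in Plod1 and in 12.4% of all stretches, and CCAAT 1 time in Plod3 and in 33.9%. The motifs found do not overlap each other. CG dinucleotides number 27 in Loxl4, 16 in Plod1 and 17 in Plod3, against a median of 6 over all stretches. These matches describe the letters only.

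Levels were compared between the genes as normalised value per kb of exon (GENCODE M21 exon lengths). Loxl1 had a mean of 13.5 ± 3.36 per kb (SD, n = 24 animals) and Loxl2 13.4 ± 2.63. They were followed by Plod1 at 10.5 ± 2.29, Plod3 at 9.57 ± 1.35 and Lox at 8.94 ± 2.81. Plod2 at 3.13 ± 0.886 and Loxl3 at 2.54 ± 0.452 lay lower, and Loxl4 had 0.493 ± 0.171. Neighbours in the upper part of this order changed places among animals: Loxl1 exceeded Loxl2 in 12 of 24 animals, Loxl2 exceeded Plod1 in 18 of 24, Plod1 exceeded Plod3 in 15 of 24 and Plod3 exceeded Lox in 14 of 24. The breaks between Lox and Plod2 and between Loxl3 and Loxl4 held in 24 of 24 animals. Lox varied 4.50-fold from the lowest to the highest animal, Loxl4 4.17-fold and Plod2 4.09-fold, while Plod3 varied 1.70-fold. The lowest normalised values of Lox (15.4) and Plod2 (6.50) were both in p21 male 53, the library with the fewest reads. The next lowest, 23.7 and 9.74, were in p21 male 54. Loxl4, with 131 to 738 recovered reads per library, was the member with the least counts.

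**Figure D1:**
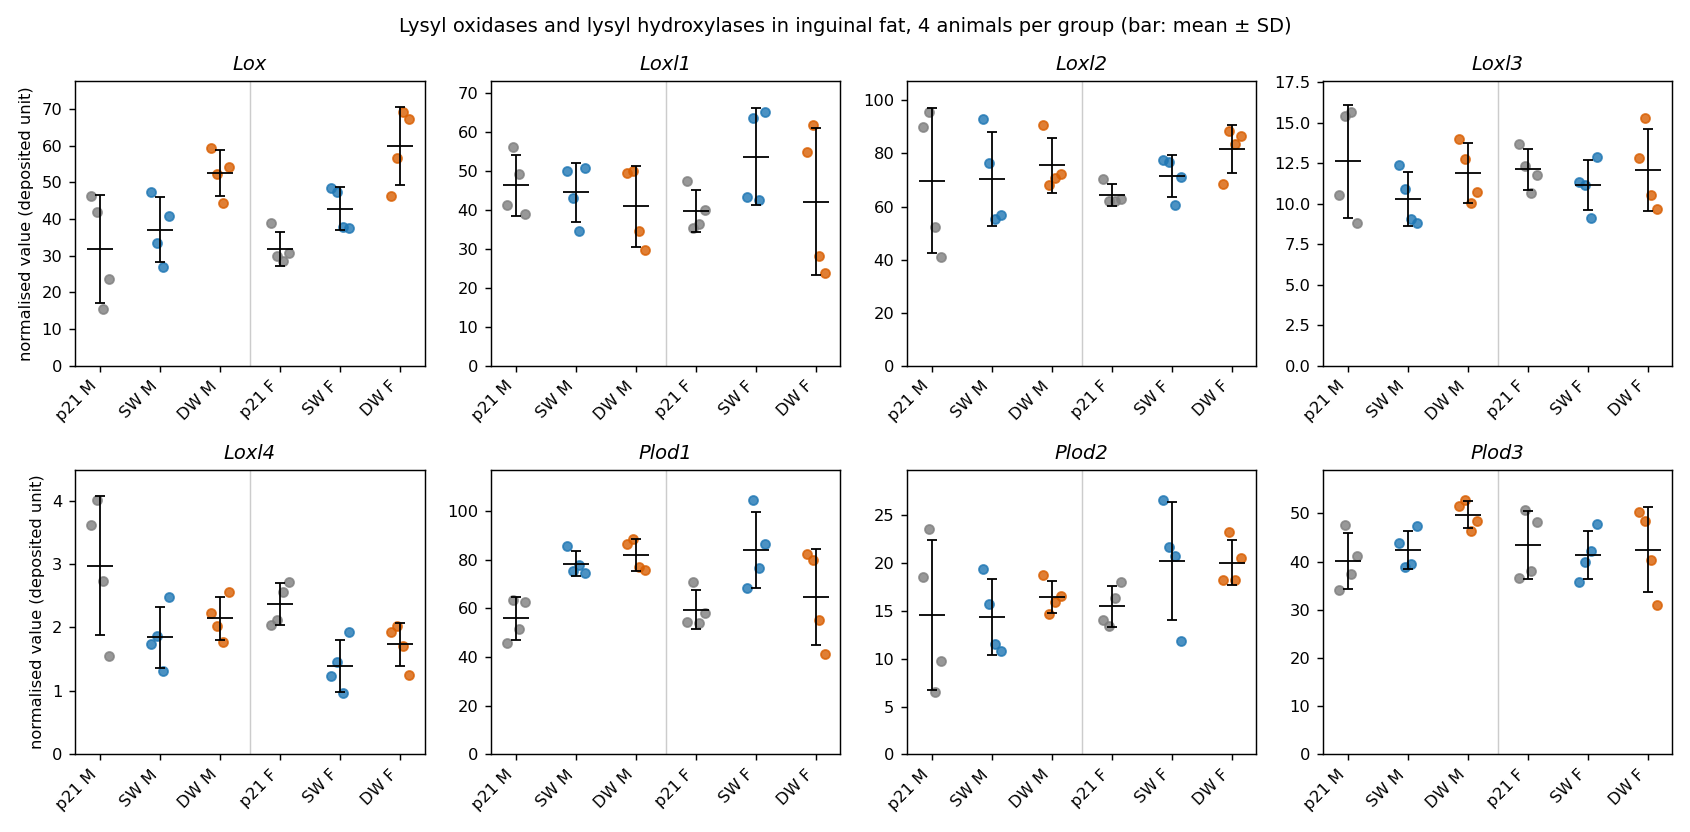
Deposited normalised value (vertical axis, own scale for each gene, from 0) of the 8 enzymes in each animal, by group (M, male and F, female). Points are animals, the wide dash is the group mean and the bar its SD (n = 4). Lox is highest in both DW groups, Plod1 is lower in p21 males than in either p28 male group, and DW females split into a higher and a lower pair for Loxl1 and Plod1.

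Lox, the founding lysyl oxidase, rose from p21 to p28 with delayed weaning, in both sexes. At p21 its normalised value in males was 46.3, 41.9, 15.4 and 23.7 (animals 37, 38, 53 and 54), and in females 38.8, 29.9, 28.5 and 30.6. In DW males it was 59.3, 52.4, 44.3 and 54.3, and in DW females 46.4, 56.6, 69.4 and 67.4 (animals 76, 77, 82 and 83). The female groups did not overlap, and in males only animal 37 at p21 exceeded a DW animal, 86. The difference in log2(value + 1) was 0.82 in males (SE 0.241, 95% interval 0.33 to 1.32, adjusted p 0.0252 by limma) and 0.88 in females (SE 0.241, 0.38 to 1.379, adjusted p 0.0197). The test of a difference between the sexes gave 0.06 (interval −0.65 to 0.76, adjusted p 0.95). Averaged over the sexes, a comparison added after the values were seen, Lox rose by 0.85 (SE 0.170, interval 0.50 to 1.20, adjusted p 0.00100). The call within males was lost without p21 male 53 (0.53, adjusted p 0.11), p21 male 54 (0.73, 0.0691), DW male 79 (0.77, 0.0679) or DW male 87 (0.81, 0.0664). With all animals it was also lost by edgeR on recovered reads (0.70, adjusted p 0.0577). The limma fit of only the groups compared lost it too (0.82, adjusted p 0.107). In all, 4 of 12 other settings lost the male call. The call within females was lost without p21 female 55 (0.83, adjusted p 0.0518), DW female 82 (0.80, 0.0634) or DW female 83 (0.82, 0.0636), and without both 82 and 83 (0.68, 0.172). The averaged call was kept when any 1 of these 16 animals was left out.

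Fibroblast and progenitor markers moved with Lox. Their 8 summed values ran from 589 to 1081 (males) and 780 to 918 (females) at p21, and from 1199 to 1371 (males) and 1265 to 1474 (females) with DW. Of the 8, 5 rose (averaged over sexes) and none fell, beside 22.8% of all genes called. Among the 5 were Dpt, up by 1.01, and Ly6a, up by 0.75, in log2(value + 1). Within the p21 males, animals 37 and 38, with the higher Lox, had marker sums of 1062 and 1081, and animals 53 and 54 had 589 and 662. Macrophage markers (6 of 6 higher) and erythroid markers (6 of 6 lower) also moved with age. The part of these cell types in the Lox result was not tested.

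After standard weaning Lox lay between these levels. SW males had 47.3, 33.6, 26.8 and 40.9 and SW females 48.5, 47.3, 37.9 and 37.6. In each sex the SW animals overlapped both the p21 and the DW animals. The change from p21 was 0.31 in males (interval −0.19 to 0.81, adjusted p 0.431) and 0.41 in females (−0.09 to 0.91, adjusted p 0.313). Averaged over the sexes it was 0.36 (0.01 to 0.71, adjusted p 0.123), and 0.47 (adjusted p 0.0354) without p21 male 37. Delayed minus standard weaning at p28 was 0.51 in males (interval 0.01 to 1.01, adjusted p 0.719) and 0.47 in females (−0.03 to 0.97, adjusted p 0.287), and 0.49 averaged over the sexes (0.14 to 0.84, adjusted p 0.14). With all animals, none of these passed the test across all genes, save the averaged weaning difference with only the p28 groups in the fit (adjusted p 0.0387). Within the animals numbered 73 to 80 the weaning difference was 0.23 in males and 0.21 in females, and within those numbered 81 to 87 it was 0.69 and 0.85, with 1 to 3 animals an arm. In the authors' deposited table Lox is higher after DW than SW by 0.50 in males (p 0.0438) and 0.49 in females (p 0.0509). The authors head these p-values as adjusted, but their share under 0.05 over all genes was that of unadjusted p-values (7.59% beside 6.94% for weaning in males), so they are not read as calls. These comparisons share animals with those above.

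**Figure D2:**
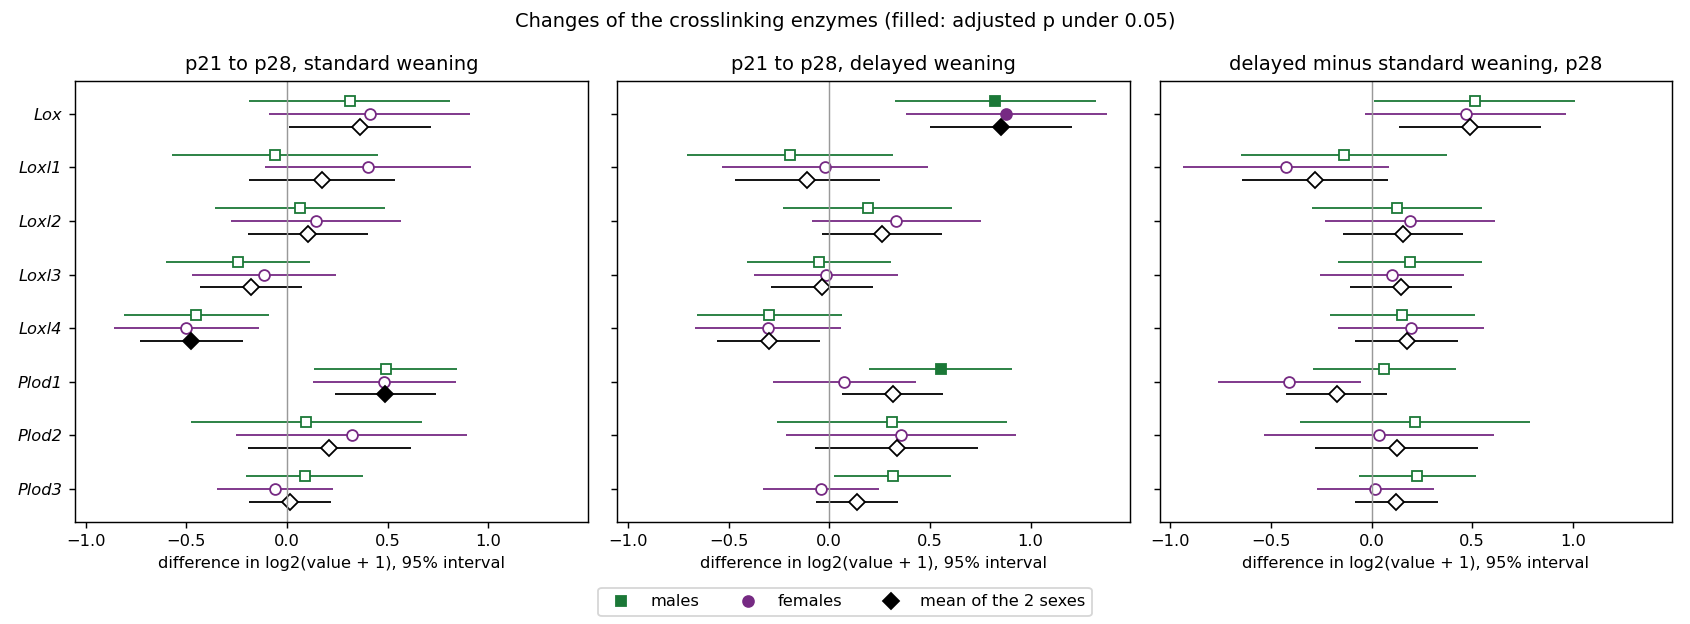
Differences in log2(value + 1) with 95% intervals (horizontal axis) for the 8 enzymes in males (squares), females (circles) and averaged over the sexes (diamonds). The panels show p21 to p28 after SW, p21 to p28 with DW, and DW minus SW at p28, and filled symbols passed at an adjusted p under 0.05. Filled symbols are Plod1 and Loxl4 (averaged) on the left, Lox (all 3) and Plod1 (males) in the middle, and none on the right.

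Plod1, the lysyl hydroxylase of the collagen helix, rose from p21 to SW averaged over the sexes, and from p21 to DW in males. Its values were 45.7, 63.6, 51.5 and 62.9 in p21 males, 85.8, 75.3, 77.7 and 74.5 in SW males and 86.6, 88.6, 77.1 and 75.7 in DW males. No p28 male of either kind overlapped a p21 male. In females they were 54.6, 71.003, 53.9 and 58.3 at p21, 68.5, 104.5, 76.6 and 86.6 after SW, and 82.3, 79.9, 55.3 and 41.2 after DW. SW female 73 lay below p21 female 36, and DW females 82 and 83 lay within or below the p21 females while 76 and 77 lay above them. Averaged over the sexes Plod1 rose by 0.49 from p21 to SW (SE 0.121, interval 0.24 to 0.74, adjusted p 0.00518). By sex the change was 0.49 in males (adjusted p 0.0644) and 0.48 in females (adjusted p 0.0722), and both passed with DESeq2 (adjusted p 0.035 and 0.0336).

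With DW, Plod1 rose by 0.55 in males (interval 0.20 to 0.91, adjusted p 0.0332) and differed by 0.07 in females (−0.28 to 0.43, adjusted p 0.825). The difference between these 2 changes was −0.48 (interval −0.98 to 0.02, adjusted p 0.311) and was −0.10 (adjusted p 0.883) without DW females 82 and 83. Without those females the averaged change was 0.50 (adjusted p 0.000812), against 0.31 (adjusted p 0.0647) with them. With all animals it passed on recovered reads by edgeR (adjusted p 0.0459, and 0.0403 with DESeq2 size factors) and by DESeq2 (adjusted p 0.0249). In the limma fit it also passed without p21 female 36 (0.36, adjusted p 0.0453) or DW female 83 (0.41, adjusted p 0.00682). Endothelial markers moved with Plod1 from p21 to DW: 3 of 6 rose in males and 0 of 6 in females, where 15% and 12.1% of all genes were called. From p21 to SW, 1 of 6 endothelial markers rose in males, 0 of 6 in females and 2 of 6 averaged, beside 11.9%, 11.6% and 25.8% of all genes. Their sums were 1109 to 1261 in p21 males, 1689 to 1845 in DW males and 1005 to 1622 in p21 females. DW females 76 and 77 had 1482 and 1531, and 82 and 83 had 1029 and 929. The part of the endothelium in the Plod1 values was not tested. The male call was lost when p21 male 37 (0.46, adjusted p 0.0836) or 53 (0.52, 0.0881), or DW male 79 (0.53, 0.0782), 80 (0.52, 0.0779), 86 (0.58, 0.0545) or 87 (0.59, 0.0583) was left out. DW minus SW was 0.06 in males (interval −0.29 to 0.42, adjusted p 0.998) and −0.41 in females (−0.76 to −0.05, adjusted p 0.22), and the female value became −0.54 (adjusted p 0.0444) without DW female 76. In the authors' deposited table it is −0.38 in females (p 0.0403, which looks unadjusted).

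Loxl4, a lysyl oxidase with scavenger receptor repeats like Loxl2 and Loxl3, fell with age after SW. It stood at 3.62, 4.00, 2.73 and 1.54 in p21 males and 2.04, 2.12, 2.56 and 2.72 in p21 females. After SW it was 1.74, 1.86, 1.31 and 2.47 in males and 1.23, 1.45, 0.96 and 1.93 in females, and after DW 2.23, 2.02, 1.77 and 2.56 in males and 1.93, 2.03, 1.71 and 1.26 in females. No p28 female of either kind overlapped a p21 female, while the male groups overlapped. Averaged over the sexes it fell by 0.48 from p21 to SW (SE 0.123, adjusted p 0.00684), with −0.45 in males (adjusted p 0.0938) and −0.50 in females (adjusted p 0.0677). The male change passed without p21 male 54 (−0.65, adjusted p 0.011) and the female change without SW female 81 (−0.60, adjusted p 0.0431). To DW it differed by −0.30 (interval −0.56 to −0.05, adjusted p 0.0827), which became −0.40 (adjusted p 0.0101) without p21 male 54, as the male change became −0.50 (adjusted p 0.0406). In the authors' deposited table, p21 exceeds SW by 0.70 in males (p 0.00887) and 0.76 in females (p 0.00433), again with p-values that look unadjusted. The log2(value + 1) scale understates changes at this low level.

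Skeletal muscle markers rose from p21 to SW averaged over the sexes, and in males also from p21 to DW. The 10 muscle markers summed to 7.07 to 1713 at p21 and 411 to 7308 after SW. All 10 rose averaged over the sexes, where 25.8% of all genes were called. By sex, 8 of 10 rose to SW in males and 1 of 10 in females, beside 11.9% and 11.6% of all genes. From p21 to DW, 8 of 10 rose in males, with sums of 7.36 to 582 and 344 to 7417, and 0 of 10 in females. There 15% and 12.1% of all genes were called. With scores for muscle, mammary epithelium and lymph node as covariates, the averaged Plod1 change to SW was 0.31 (adjusted p 0.367) and the Loxl4 change −0.38 (adjusted p 0.244). Neither was called. In that comparison the covariates took the calls over all genes from 2369 higher and 1765 lower to 528 and 331. Lox from p21 to DW, averaged, was 0.77 (adjusted p 0.00393) with them. There the calls over all genes went from 1970 higher and 1685 lower to 1339 and 1101, so fewer were removed. Within males those covariates also ended the calls from p21 to DW of Lox (0.52, adjusted p 0.296) and Plod1 (0.52, adjusted p 0.182). Over all genes the male calls to DW went from 1418 higher and 977 lower to 264 and 151. From p21 to SW, averaged over the sexes, 7 of 10 mammary epithelial markers rose and 4 of 10 lymph node markers fell.

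The other 5 members did not pass in any comparison of the limma fit of all animals. Loxl1 ran from 23.7 to 65.2, and in DW females it was 54.9 and 61.6 in animals 76 and 77 but 28.2 and 23.7 in 82 and 83. DW males 79 and 80 (49.4 and 49.9) likewise lay above 86 and 87 (34.5 and 29.7). Summed endothelial markers were 1482 and 1531 in DW females 76 and 77 and 1029 and 929 in 82 and 83, while in DW males 79, 80, 86 and 87 they were 1845, 1698, 1690 and 1689. In the same order of DW females, smooth muscle and pericyte markers summed to 947, 1016, 714 and 775, and mammary epithelial markers to 221, 201, 104 and 105. Fibrillar collagens summed to 9472, 12868, 7106 and 6381, and elastic fibre genes to 1416, 1762, 993 and 885. Fibroblast and progenitor markers went the other way, with 1265, 1346, 1407 and 1474, as did proliferation genes, with 187, 245, 324 and 289. The part of the cell types behind these sums in the split was not tested. Loxl1 after DW minus SW in females was −0.43 (interval −0.94 to 0.09, adjusted p 0.335), and became 0.14 without animals 82 and 83.

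Loxl2 was highest at 95.8 in p21 male 38 and lowest at 41.1 in p21 male 54. From p21 to DW it changed by 0.26 averaged over the sexes (interval −0.04 to 0.56, adjusted p 0.2). Plod2, the telopeptide lysyl hydroxylase, showed the same split of p21 males, with 18.6 and 23.6 in animals 37 and 38 and 6.50 and 9.74 in 53 and 54. Its averaged change to DW was 0.33 (interval −0.07 to 0.74, adjusted p 0.229). Loxl3 kept between 8.81 and 15.7 in all animals, with an averaged change of −0.18 to SW (interval −0.43 to 0.07) and −0.03 to DW (−0.29 to 0.22). Plod3 lay between 31.0 and 52.7, and its averaged changes were 0.01 to SW (interval −0.19 to 0.22) and 0.14 to DW (−0.07 to 0.34), the latter reaching 0.25 (adjusted p 0.043) without DW females 82 and 83.

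The members were then counted against all 16005 genes tested. From p21 to SW, 0 of 8 were called in males, where 11.9% of all genes were, and 0 of 8 in females, where 11.6% were. At an unadjusted p under 0.05 there were 2 members (Plod1 and Loxl4) in each sex, beside 27% of all genes in males and 24.1% in females. DESeq2 called 1 member in males and 2 in females, and edgeR called 0. Over all genes DESeq2 called 1435 higher and 1127 lower in males, and 1181 and 814 in females. By edgeR these were 984 and 817 in males, and 791 and 681 in females. From p21 to DW the limma fit called 2 of 8 in males beside 15% of all genes, and 1 of 8 in females beside 12.1%. Averaged over the sexes, 2 of 8 were called from p21 to SW (25.8% of all genes) and 1 of 8 from p21 to DW (22.8%), and with 8 members these shares were close to those over all genes. The median change of the 8 was 0.14 from p21 to SW and 0.20 from p21 to DW, beside 0.02 and 0.01 over all genes.

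For weaning at p28, 0 of 8 were called in males (0.256% of all genes), in females (1.27%) and averaged over the sexes (2.21%). The unadjusted p was under 0.05 for 1 member in each of these by limma, which were Lox in males and averaged and Plod1 in females, beside 6.94%, 17.4% and 18.9% of all genes in turn, and neither edgeR nor DESeq2 called any. In females against males none of the 8 passed at p21 (0.356% of all genes called), after SW (3.54%) or after DW (2.46%), with 1 member, Plod1, at an unadjusted p under 0.05, after DW, where 19.7% of all genes were (−0.39, interval −0.74 to −0.03, adjusted p 0.215). No member passed the test that the sexes differ in the weaning effect (0.0187% of all genes), in the change from p21 to SW (1.03%) or in that to DW (0.0687%). For these 3 the unadjusted p was under 0.05 in 0 members by limma, edgeR and DESeq2.

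Within groups, 4 pairs of enzymes were correlated across animals: Plod1 with Plod3 and Loxl1 with Loxl3 by both r and rho, and Loxl2 with Lox and with Plod2 by rho. Deviations from the group mean were correlated over the 24 animals for all 28 pairs, with p-values permuted within groups and adjusted over the 28. Plod1 and Plod3 had r 0.80 (adjusted p 0.00742) and rho 0.78 (adjusted p 0.0141). Without the 2 animals farthest from the median deviation of Plod1, r was 0.68. For the pairs below, the 2 animals left out were likewise chosen by the gene named first, so extremes of the other gene stayed in. Loxl1 and Loxl3 had r 0.74 (adjusted p 0.00742) and rho 0.72 (adjusted p 0.0141), with 0.68 without 2 animals. Lox with Loxl2 had r 0.77 (adjusted p 0.0555) and rho 0.79 (adjusted p 0.0204), and 0.76 without 2 animals. Loxl2 with Plod2 had r 0.75 (adjusted p 0.0555) and rho 0.80 (adjusted p 0.0204), and 0.70 without 2 animals. Lox with Plod2 had r 0.74 (adjusted p 0.0555), rho 0.63 (adjusted p 0.0906) and 0.58 without 2 animals, and Loxl1 with Plod1 r 0.72 (adjusted p 0.0555), rho 0.66 (adjusted p 0.063) and 0.57. Between Lox, Loxl2 and Plod2 on one side and Loxl1, Plod1 and Plod3 on the other, r ran from −0.17 to 0.19. The pairs share library and tissue makeup.

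**Figure D3:**
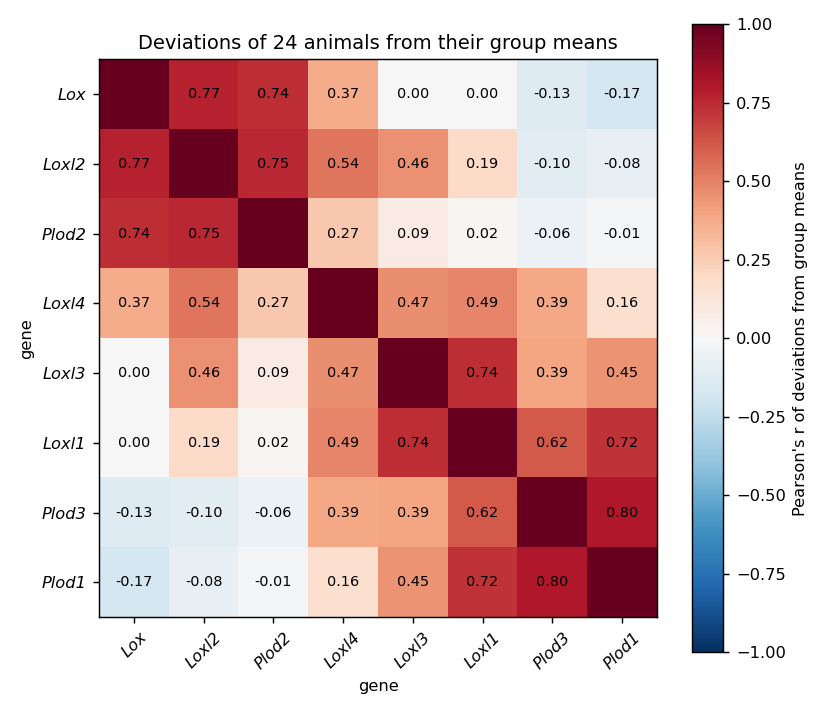
Pearson's r between members (both axes are genes) of the deviations of 24 animals from their group means, on the colour scale from −1 to 1 and printed in each square. Lox, Loxl2 and Plod2 form one block of r 0.74 to 0.77, and Loxl1, Plod3 and Plod1 another of 0.62 to 0.80.

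The genes whose levels over the 24 animals were most like each member were taken by Pearson's r among 10784 genes with a mean value of at least 5, as a description. For Lox they were Abca5 (0.93), Dpt, encoding the matrix protein dermatopontin (0.92), and F13a1, the coagulation factor XIII A chain (0.92). Loxl2 was most like Ogn, encoding osteoglycin (0.91), and Fstl1 (0.90), and Plod2 most like Postn, encoding periostin (0.85). Plod1 was most like Jup, the junction protein plakoglobin (0.96), and Robo4, an endothelial receptor (0.95), and Plod3 most like Col5a3, a collagen V chain (0.93). Loxl1 led with Plac9 (0.84), Loxl4 with Xpnpep2 (0.86) and Loxl3 with Cdca3 (0.72).

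Other genes that act on the same fibres were counted in the comparisons averaged over the sexes. Of 7 genes for other crosslinks and copper supply, 4 rose from p21 to SW and 4 from p21 to DW, where 25.8% and 22.8% of all genes were called. To SW it was 2 of 7 without p21 animal 30, 36, 53 or 54 or SW animal 73, 74, 81, 84 or 124. From p21 to DW, Atp7a, the transporter that loads copper into secreted enzymes such as Lox, rose by 0.97, F13a1 by 0.90, Pxdn, which crosslinks collagen IV, by 0.58 and the transglutaminase Tgm2 by 0.52. The same 4 rose by 0.58, 0.52, 0.25 and 0.60 from p21 to SW. Pxdn also rose in DW over SW, by 0.33 (adjusted p 0.0234), the sole one of the 7, a call lost without SW female 73 or 75 or DW male 79 or 80. By sex, 4 of 7 rose to DW in males and 1 of 7 in females, where 15% and 12.1% of all genes were called. The median changes of the 7 to DW were 0.83 in males and 0.27 in females. To SW, 2 of 7 rose in males and 1 of 7 in females, beside 11.9% and 11.6% of all genes. In DW females against DW males, 1 of 7 was lower, where 2.46% of all genes were called.

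Averaged over the sexes, 2 of 14 elastic fibre genes rose from p21 to SW and 5 from p21 to DW, and none fell. Of all genes, 25.8% and 22.8% were called in turn. To SW the elastic fibre count was 1 without p21 female 30 or SW female 81. Mfap4, a microfibril protein, rose by 1.44 and 1.10 in turn and Emilin1 by 0.67 and 0.61. Fbln5, which links Loxl1 to elastin, rose by 0.38, Fbln2 by 0.48 and Mfap5 by 0.70 to DW. Mfap5 is also in the list of fibroblast and progenitor markers, so its rise counts in both. To DW, 3 of 14 rose in males, and in females 1 rose and 1 fell, beside 15% and 12.1% of all genes. Averaged, fibrillar collagens changed in 0 of 11 from p21 to SW, and to DW Col5a2 rose by 0.45 and Col27a1 fell by 0.52. To SW 1 was called without p21 male 53, and to DW 1 in place of 2 without p21 animal 30, 54 or 55 or DW animal 77, 79, 80, 86 or 87. By sex, 1 of 11 rose to DW in males, and 2 of 11 fell in females. Averaged over the sexes, fibroblast and progenitor markers rose in 3 of 8 to SW and 5 of 8 to DW. Macrophage markers rose in 6 of 6 in both periods, in which erythroid markers fell. Muscle markers rose in 10 of 10 to SW averaged, with 8 of 10 in males and 1 of 10 in females. The part of these cell types in these counts was not tested.

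Of 20 genes for procollagen modification and folding, 3 fell and none rose from p21 to SW, with 7 called without p21 male 53 and 1 without SW male 84. Of all genes 25.8% were called in that comparison, with 1765 of 16005 lower. The 3 were P4hb, a subunit of prolyl 4-hydroxylase, which fell by 0.29, and P3h1 and Crtap, partners in prolyl 3-hydroxylation, which fell by 0.30 each. From p21 to DW, where 22.8% of all genes were called, only Fkbp7, a prolyl isomerase of the endoplasmic reticulum, was called, rising by 0.36. The count to DW was 0 without p21 animal 36, 53 or 56 or DW animal 79, 86 or 87, and 2 without p21 animal 30, 37 or 38 or DW animal 80. Of 10 genes for propeptide removal and Lox activation, Adamts2, the procollagen N-proteinase, rose by 0.59 to DW and none was called to SW, where 1 was called without animal 37, 56, 74 or 85 and 2 without 38 or 54. Of 14 hypoxia targets, 2 rose and 1 fell in each period, beside 25.8% of all genes called to SW and 22.8% to DW. To DW 6 of the targets were called without p21 male 37 and 5 without p21 female 30.

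**Figure D4:**
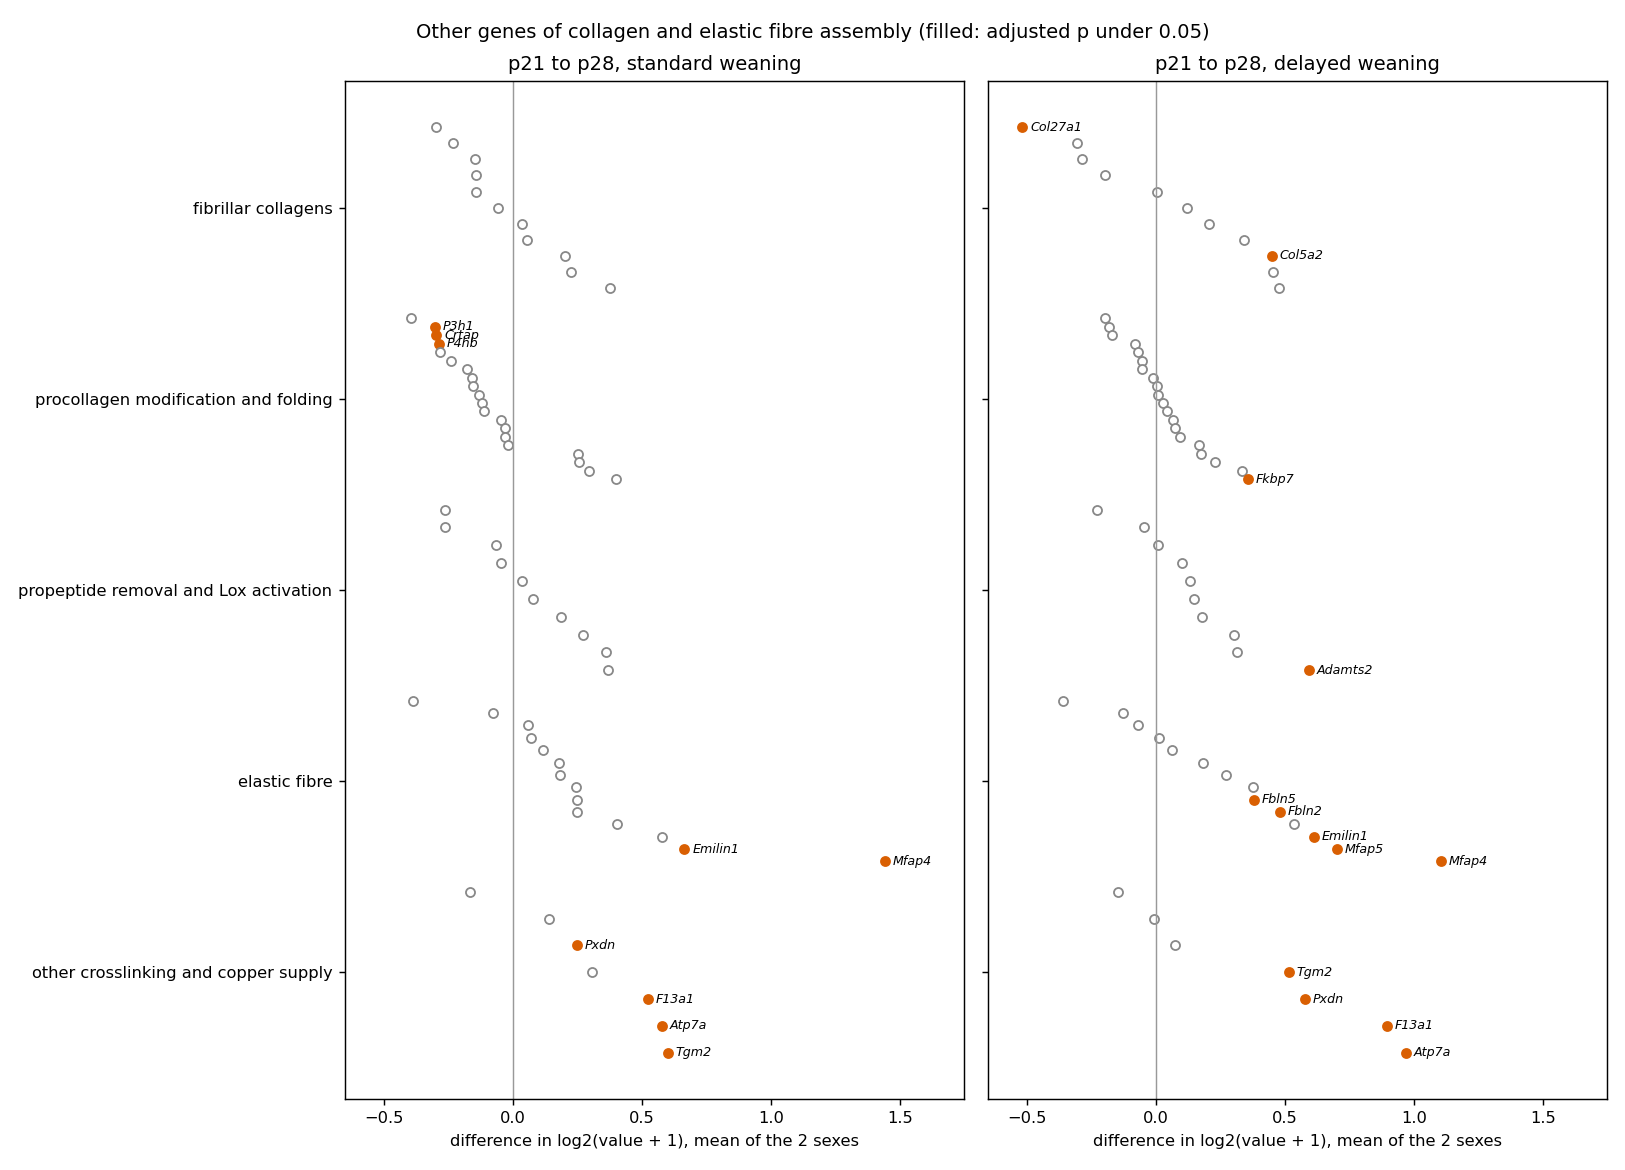
Differences in log2(value + 1) averaged over the sexes (horizontal axis) for the other genes of fibre assembly, grouped by list (vertical axis), from p21 to SW on the left and to DW on the right. Each point is a gene, and filled, named points passed at an adjusted p under 0.05. The crosslinking and copper genes and the elastic fibre genes have filled points to the right of 0, with Mfap4 farthest right at 1.44 and 1.10.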

How the data were processed

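Per the labels' protocols, RNA of inguinal fat was extracted with a lipid tissue kit, KAPA mRNA HyperPrep libraries were made, and a NovaSeqXPlus read them. The submitters' processing notes name fastp, HISAT2, featureCounts, DESeq2 1.38.3 and mm10, with no roles. The authors deposited a normalised signal per gene, in which 100% of values were whole multiples of a step of the sample (tolerance 0.01), so whole reads could be recovered. The authors deposited, per the file headers, log2 fold changes and p-values headed as adjusted for 9 group comparisons, used only where their table is named. These p-values look unadjusted: 16100 to 16108 of 16108 were distinct in each comparison, and 7.59% to 31.3% were under 0.05, beside 6.94% to 30% of unadjusted and 0.256% to 15% of adjusted p-values here. The table has 16208 rows, of which 90 repeats were left out. Ages follow the descriptions and age labels, since p21 titles give another age. The strand setting is not given in the sources used here. Gene positions of the file differ from GRCm38 and are not printed, and the Lox sequence is not shown.

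All 24 samples entered 1 limma 3.58.1 fit (R 4.3.3) on log2(value + 1), with a coefficient per group, 18 residual degrees of freedom and a variance trend. Genes passing filterByExpr (minimum count 10) numbered 16005. Calls used a Benjamini-Hochberg adjusted p under 0.05, over all genes. The design had 12 contrasts, and 3 averaged over the sexes were added after the values were seen. All 8 members are named, with the 3 genes most like each and called genes of the lists. The members, lists and comparisons were chosen with earlier results of these data known. Alternatives were edgeR 4.0.16 and DESeq2 1.42.0 on recovered reads, other filters and pseudocounts, covariates and left-out animals. The fit was tested on simulated data. Each replicate is a mouse of its own.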

Additional observations from a re-analysis of the deposited data

Results flagged for a closer look

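In p21 females, animal 30 had a Loxl2 value of 70.5, while the other 3 lay between 61.98 and 63.004. Its gap to the nearest animal was large for the range of the group by Dixon's test at the 95% level. It was the only such case in 48 groups of 4 (8 genes in 6 groups), where chance gives about 2.4.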

How the results depend on the processing

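The averaged rise of Lox from p21 to DW was called in 12 of 12 other settings (adjusted p 3.19e-05 to 0.00654) and 16 of 16 fits without 1 animal (0.71 to 0.96). Calls by animal left out gave 0 to 2 members from p21 to DW in males, 0 to 1 in females, in the weaning comparison of females and in both sexes from p21 to SW, 2 to 3 averaged from p21 to SW and 1 to 2 averaged to DW. Calls over all genes moved too. In males to DW they were 767 higher and 469 lower without DW male 87, against 1418 and 977 with all animals. For weaning in females they were 764 and 1232 without DW female 76, against 74 and 130. Members called from p21 to SW numbered 1 in males with DESeq2, with only the groups compared, with the run of animal numbers as covariate and without DW females 82 and 83, and 2, 2, 1 and 1 in females in turn. Over all genes these settings in turn called 1435, 526, 700 and 1606 higher in males and 1181, 1517, 1250 and 1483 in females. They called 1127, 296, 470 and 1373 lower in males and 814, 889, 743 and 1075 in females. From p21 to DW in males, members called numbered 1 (Plod1, with Lox lost) with edgeR and with only the groups compared. They numbered 0 with tissue scores or without p21 male 53 and SW male 84. Over all genes, calls there were 1164 higher and 1119 lower with edgeR, and 1153 and 868 with only the groups compared. They were 264 and 151 with tissue scores and 852 and 598 without those 2 males. In females, members called to DW numbered 0 without DW females 82 and 83. Over all genes 739 were then called higher and 653 lower, against 952 and 986 with all animals. Averaged, members called numbered 1 for weaning with only the groups compared, 0 from p21 to SW with tissue scores, 2 to DW with edgeR under both scalings, DESeq2 and the run covariate, and 3 without DW females 82 and 83. Over all genes, the tissue scores took the averaged calls to SW from 2369 higher and 1765 lower to 528 and 331. To DW, calls were 1768 and 1621 with edgeR, 2250 and 1847 with DESeq2 and 2360 and 2065 without those females, against 1970 and 1685. They were 1851 and 1524 with edgeR under DESeq2 size factors and 1420 and 1131 with the run covariate. For averaged weaning with only the groups compared, 225 were higher and 165 lower, against 191 and 162.

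Values that changed sign were not called. Without DW females 82 and 83, averaged weaning gave 0.0030 for Loxl1 and 0.015 for Plod1, weaning in females 0.14 for Loxl1, averaged p21 to DW 0.18 for Loxl1 and 0.074 for Loxl3, and the sex difference of Lox to DW −0.15. The run covariate, set after animals 81 to 87 and 124, rests a comparison with p21 on the p28 animals 73 to 80, so it is no check of age changes. With it, Loxl1 was 0.14 and Loxl3 0.0765 averaged to DW, and Plod1 −0.0072 for weaning in males. With tissue scores, Plod3 was −0.12 averaged to SW (−0.0087 with edgeR) and Plod1 −0.064 in females to DW. Without p21 male 53 and SW male 84, Loxl3 was 0.021 averaged to DW. Leaving out 1 animal gave −0.0062 to 0.19 for Loxl2 and −0.024 to 0.056 for Plod3 averaged to SW, −0.22 to 0.0062 for Loxl1 and −0.11 to 0.021 for Loxl3 averaged to DW, −0.058 to 0.27 for Plod1 in females to DW and −0.16 to 0.35 for the sex difference of Lox. The cause of these changes was not tested. No paired analysis was possible because the groups share no animal numbers. Loxl4 had the fewest reads.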
